A study of Rattus norvegicus with 12 samples.

Results

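The genes described here are 48 genes of mitosis and the spindle, whose products condense the chromosomes, build the spindle, check its attachment and separate the daughter cells. They were listed by symbol and measured in rat calvaria, the flat bone of the skull roof, 6 h after surgery. A probe was kept when 4 or more of the 12 arrays read it well above background, and each symbol was represented by its kept probe of highest mean signal. Of the 48 symbols, 47 had a probe of that name and 46 passed, out of 22936 genes measured. Ncaph had no probe of that name, and the 1 Hmmr probe was well above background on 0 of 12 arrays. Of the 46 measured members, 40 were well above background on all 12 arrays and 6 on 4 to 11, and Trip13 passed through the 4 control arrays alone.

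The study compared bone ablated by an Er:YAG laser, which emits infrared light that water absorbs strongly, with bone cut by a rotating bur and with uncut bone. All animals were 10 weeks old, and the labels name neither strain nor sex. The laser group had an 8 by 3 mm rectangular defect made with 3 strokes of a contact tip at 127 mJ per pulse and 20 Hz, the bur group the same defect made by drilling, and the control group had the periosteum, the membrane over the bone, taken off with no ablation. Each group held 4 one-colour arrays. The labels do not say that the 4 came from separate animals, so the p-values measure only the spread between these samples, which may be technical.

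In a dividing cell, CDK1 with cyclins A and B drives entry into mitosis, Aurora and Polo kinases shape the spindle, and kinetochore proteins tie chromosomes to spindle fibres. The spindle checkpoint holds the anaphase-promoting complex (APC/C) until all chromosomes are attached, after which separase cuts the rings that hold sister chromosomes together. Transcripts of these genes accumulate in G2 and mitosis, and are scarce in cells that do not divide, such as osteocytes. In calvaria, the dividing cells include osteoblast precursors and the blood cell precursors of the marrow spaces.

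Many genes of this kind are switched on late in the cell cycle through a short element called CHR, usually beside CCAAT boxes bound by NF-Y. Of the 48 genes, 41 had a promoter in the RefSeq table of build GRCr8, which gives 250 bases before and 50 after the annotated start, with 42 promoters in all because Kif2c had 2. Stretches of 120 bases ending at the base before the start are shown for members of 8 roles, with CHR letters (TTTGAA or TTTAAA, either strand) and CCAAT in capitals, and for Trip13, which had neither.

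Ccnb2: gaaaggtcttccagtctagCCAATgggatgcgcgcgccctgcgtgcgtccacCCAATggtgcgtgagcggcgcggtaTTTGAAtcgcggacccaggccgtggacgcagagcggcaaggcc
Plk1: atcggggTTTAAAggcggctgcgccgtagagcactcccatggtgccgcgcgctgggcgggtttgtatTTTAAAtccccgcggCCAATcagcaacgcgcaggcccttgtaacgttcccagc
Cdca8: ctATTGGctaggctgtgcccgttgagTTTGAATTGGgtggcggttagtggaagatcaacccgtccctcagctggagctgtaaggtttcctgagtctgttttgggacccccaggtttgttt
Spc25: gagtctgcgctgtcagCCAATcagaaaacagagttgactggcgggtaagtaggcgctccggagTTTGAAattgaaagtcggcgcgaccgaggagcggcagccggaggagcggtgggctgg
Kif11: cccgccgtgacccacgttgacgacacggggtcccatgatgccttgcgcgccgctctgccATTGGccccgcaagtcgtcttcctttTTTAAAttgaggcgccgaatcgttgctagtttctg
Cdc20: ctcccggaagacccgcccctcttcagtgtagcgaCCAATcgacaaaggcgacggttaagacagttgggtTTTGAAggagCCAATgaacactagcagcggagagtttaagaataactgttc
Prc1: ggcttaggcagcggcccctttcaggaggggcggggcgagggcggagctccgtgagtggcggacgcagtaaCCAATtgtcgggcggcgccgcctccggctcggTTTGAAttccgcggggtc
Top2a: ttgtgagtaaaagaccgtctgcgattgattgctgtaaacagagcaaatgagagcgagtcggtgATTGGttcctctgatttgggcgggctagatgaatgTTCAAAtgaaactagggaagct
Trip13: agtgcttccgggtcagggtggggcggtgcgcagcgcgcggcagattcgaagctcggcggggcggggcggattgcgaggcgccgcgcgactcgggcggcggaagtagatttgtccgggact

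These stretches lie at chr8:79981659-79981778 on the minus strand, chr1:186147538-186147657 on the plus strand, chr5:142483200-142483319 on the minus strand, chr3:74396719-74396838 on the minus strand, chr1:244536747-244536866 on the plus strand, chr5:137255800-137255919 on the minus strand, chr1:143659361-143659480 on the plus strand, chr10:84473094-84473213 on the minus strand and chr1:31185580-31185699 on the plus strand. In the Ccnb2 promoter TTTGAA began at position -43 from the start, with CCAAT at -68 and -101. Prc1 held TTTGAA at -18 and CCAAT at -50, and Cdca8 held TTTGAA at -94 running into a reversed CCAAT at -89. A CHR form was found in 38 of the 42 promoters (90.5%), against 20.9% of the 14049 promoters of other genes measured here. The form TTTGAA was in 28 of 42, against 13.1%, and CCAAT in 29 of 42, against 36.8%. Both elements together were in 28 of 42 promoters, against 8.11%. The 2 elements overlapped in 2 of the 42 promoters. The E2F letters TTTCCCGC, TTTGGCGC, TTTCGCGC and TTTGCCGC were found in 2 of 42 promoters, those of Cdk1 and Kif18a, against 3.35%. By gene, 38 of 41 held a CHR form, and Trip13, Kif18a and Nek2 did not. The 2 Kif2c promoters differed, since the only CHR form found in them was a single TTTAAA at -19. A match of letters is a description and not a measured binding site.

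The mitotic genes were lower in both cut groups than in control bone. In limma with Benjamini-Hochberg adjustment over all 22936 genes, 43 of the 46 members fell in laser-ablated bone and 1, Smc4, rose, and 44 fell and 1, again Smc4, rose in bur-drilled bone. These counts include Trip13, whose direction the filter fixed, and without it 42 and 43 of 45 fell. Over all genes, 17.6% were called lower and 32.2% higher with the laser, and 18.3% lower and 32.7% higher with the bur. With each array scaled on its median, 21.3% of all genes were called lower and 22.6% higher with the bur, and 45 members fell. The members' median log2 difference from control was -2.23 with the laser and -2.42 with the bur, or -2.21 and -2.40 without Trip13. The median of all genes was 0.21 and 0.233. Every laser array lay below every control array for 43 members, where 17.8% of all genes had this pattern. Every bur array lay below every control array for 37 members, where 15.7% of all genes did. Both of these counts include Trip13, whose direction the filter fixed. Fewer dividing cells and less mitotic RNA per cell cannot be told apart in whole bone.

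**Figure D1:**
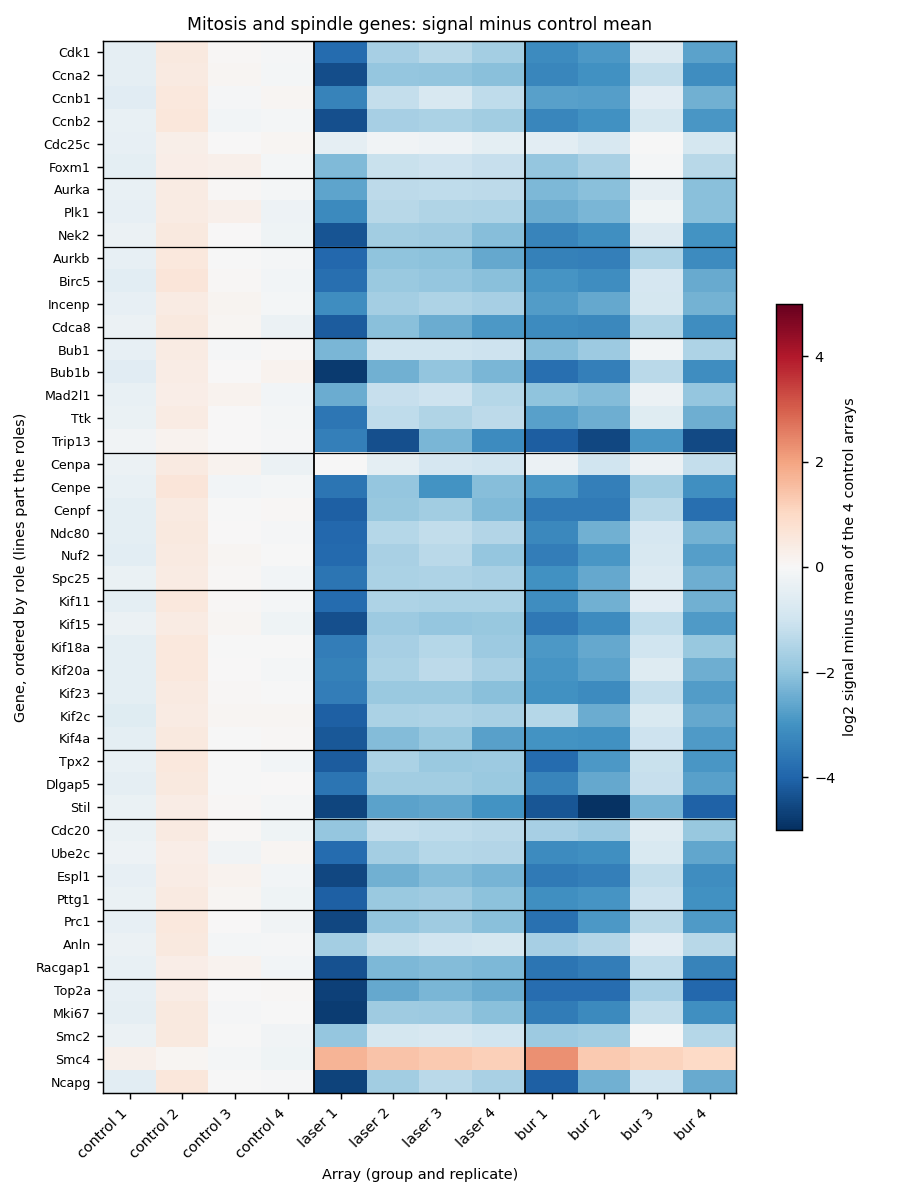
Log2 signal of each of the 46 measured members (rows, parted by role) on each of the 12 arrays (columns), minus that gene's mean over the 4 control arrays. Blue is lower and red is higher than control. All rows but Smc4 are blue in the cut groups, with Cdc25c and Cenpa pale, and laser 1 is the deepest laser column and bur 3 the palest bur column.

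A single slide held all 4 control arrays, while laser and bur arrays shared 2 further slides, 2 of each per slide. Treatment against control therefore cannot be told apart from slide and scan. The spiked-in control probes, at a mean log2 signal of 4.92 to 5.34 on control arrays and 8.13 to 8.83 on treated arrays, also differed between the slides. With the treated arrays of replicates 1 and 2 alone, the members' median was -2.77 with the laser and -3.02 with the bur, and with replicates 3 and 4 alone it was -1.63 and -1.72. Leaving out laser 1 brought the laser median to -1.64, with 41 members called, and leaving out bur 3 brought the bur median to -2.92, with 46 called. Signals below are log2 values relative to the array's own 75th percentile, with replicates in order from 1 to 4, and differences are log2 differences of group means.

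Of the 6 genes of the cyclin and CDK1 engine, 5 fell with the laser and 6 with the bur. Ccna2, cyclin A2, which pairs with CDKs in S phase and early mitosis, had signals of 3.12, 4.04, 3.69 and 3.50 in control bone. Its signals were -0.85, 1.66, 1.61 and 1.49 after the laser and 0.33, 0.57, 2.36 and 0.50 after the bur. No treated array reached the lowest control array. The difference was -2.61 ± 0.59 (SE, n = 4) with the laser, 6.1-fold lower (limma adjusted p = 0.00463), and -2.65 with the bur (limma adjusted p = 0.0043). Cdk1, the kinase that starts mitosis, fell by 2.14 and 2.36 on the log2 scale with laser and bur. Ccnb2, cyclin B2, fell by 2.34 and 2.53, and Foxm1, a transcription factor of the G2 genes, fell by 1.39 and 1.26. Ccnb1, cyclin B1, the activating partner of CDK1, had control signals of 0.80, 1.88, 1.30 and 1.45, laser signals of -1.98, 0.17, 0.57 and 0.10, and bur signals of -1.35, -1.39, 0.81 and -1.06. The laser arrays lay below the controls and bur 3 was level with control 1. It fell by 1.64 with the laser (limma adjusted p = 0.041) and by 2.11 with the bur (limma adjusted p = 0.014). The Ccnb1 laser call was lost when any of 7 arrays was left out, among them laser 1, without which the difference was -1.08 (limma adjusted p = 0.103).

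Cdc25c, the phosphatase that activates CDK1, was the member with the smallest laser difference. Its signals were -1.92, -1.21, -1.46 and -1.40 in control bone, -1.93, -1.67, -1.74 and -2.00 after the laser, and -2.04, -2.29, -1.53 and -2.36 after the bur. Both treated groups overlapped control 1. The difference was -0.34 ± 0.20 with the laser (limma adjusted p = 0.184) and -0.56 with the bur (limma adjusted p = 0.0397). The bur call was lost without control 2, 3 or 4, laser 3, or bur 1, 2 or 4, with adjusted p up to 0.108 in limma.

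All 3 mitotic kinases fell in both comparisons. Nek2, a kinase that lets the centrosomes part, had signals of 2.41, 3.16, 2.72 and 2.46 in control bone. They were -1.64, 0.96, 0.91 and 0.55 after the laser and -0.61, -0.37, 1.98 and -0.31 after the bur. All 8 treated arrays lay below the controls, with laser 1 lowest and bur 3 highest. Nek2 fell by 2.49 with the laser (limma adjusted p = 0.00952) and by 2.52 with the bur (limma adjusted p = 0.00901). Aurka, Aurora A of the spindle poles, had signals of 2.42, 3.20, 2.85 and 2.68 in control bone, 0.15, 1.50, 1.53 and 1.50 after the laser, and 0.53, 0.68, 2.35 and 0.69 after the bur. The 3 higher laser arrays differed by little more than the second decimal while laser 1 stood apart. Aurka fell by 1.62 and 1.73, and Plk1, the Polo kinase of mitotic entry and spindle assembly, fell by 1.89 and 1.76.

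The chromosomal passenger complex, which corrects faulty spindle attachments and guides cytokinesis, fell as a whole, 4 of 4 in both comparisons. Cdca8, borealin, its targeting subunit, had signals of -1.77, -0.98, -1.38 and -1.79 in control bone, -5.64, -3.58, -3.97 and -4.34 after the laser, and -4.62, -4.70, -2.98 and -4.60 after the bur. The groups did not overlap, and 3 of 4 arrays of each treated group were well above background. The difference was -2.90 ± 0.48 with the laser, 7.47-fold lower (limma adjusted p = 0.00087), and -2.75 with the bur (limma adjusted p = 0.0012). With normexp background correction it was -1.20 and -1.22, and in a refit of the authors' quantile-normalized values -1.69 and -1.62. Incenp, the scaffold, had signals of 1.57, 2.37, 2.10 and 1.87 in control bone, -1.12, 0.28, 0.42 and 0.32 after the laser, and -0.82, -0.57, 1.08 and -0.39 after the bur. It fell by 2.00 and 2.15. Aurkb, the catalytic Aurora B, fell by 2.63 and 2.86, and Birc5, survivin, by 2.41 and 2.36.

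Of the 5 genes of the spindle checkpoint, the 4 others than Trip13 fell in both comparisons. Trip13, an ATPase that remodels the checkpoint protein MAD2, had signals of -2.63, -2.28, -2.43 and -2.51 in control bone. It was not well above background on any of the 8 treated arrays, where measured values were -5.87, -6.86, -4.74 and -5.60 after the laser and -6.57, -7.00, -5.37 and -6.99 after the bur. Set against the lowest signal well above background on each treated array, Trip13 was 4.73-fold lower with the laser and 5.04-fold lower with the bur. These are not minimum falls under other processing. With normexp Trip13 was 1.77-fold and 2.02-fold lower, and in the refit 2.41-fold and 2.80-fold lower. Because it entered through the control arrays alone, it could only be lower, and its tests are not given. Bub1b, BUBR1, a part of the inhibitor of the APC/C, fell by 2.85 and 2.91, and Ttk, the kinase MPS1 that starts the checkpoint signal, by 1.92 and 2.05. Mad2l1, MAD2, fell by 1.52 and 1.60. Bub1, a kinase that recruits other checkpoint proteins, had signals of 1.88, 2.71, 2.23 and 2.37 in control bone, 0.02, 1.30, 1.31 and 1.26 after the laser, and 0.19, 0.49, 2.16 and 0.76 after the bur. Only bur 3 reached into the control range. Bub1 fell by 1.33 with the laser (limma adjusted p = 0.0238) and 1.40 with the bur (limma adjusted p = 0.0186). The laser call was lost without control 2 or laser 1 (differences of -1.19 and -1.01), and the bur call without control 2, bur 1 or bur 2 (-1.26, -1.16 and -1.26).

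Of the 6 centromere and kinetochore genes, 5 fell in both comparisons. Cenpe, a kinesin that carries chromosomes to the spindle equator, had signals of -1.94, -0.99, -1.70 and -1.68 in control bone, -5.23, -3.51, -4.56 and -3.71 after the laser, and -4.47, -5.01, -3.32 and -4.66 after the bur. The groups did not overlap, and 2 of 4 arrays in each treated group were well above background. It fell by 2.68 with the laser (limma adjusted p = 0.000811) and by 2.79 with the bur (limma adjusted p = 0.000691). With normexp the Cenpe difference was -1.11 and -1.19, and in the refit -1.49 and -1.55. Cenpf, a large protein of the outer kinetochore, had signals of 0.30, 1.23, 0.76 and 0.83 in control bone, -3.32, -1.10, -0.96 and -1.45 after the laser, and -2.75, -2.75, -0.63 and -2.98 after the bur. It fell by 2.48 and 3.06. Ndc80, Nuf2 and Spc25, subunits of the complex that grips microtubules, fell by 2.01, 2.20 and 2.09 with the laser and by 2.21, 2.48 and 2.18 with the bur. Cenpa, the histone H3 variant that marks centromeres, had signals of -1.31, -0.56, -0.84 and -1.28 in control bone, -1.02, -1.47, -1.85 and -1.96 after the laser, and -1.30, -2.01, -1.31 and -2.18 after the bur. The groups overlapped, with laser 1 here the highest laser array. The difference was -0.57 ± 0.28 with the laser (limma adjusted p = 0.107) and -0.70 with the bur (limma adjusted p = 0.0553), so Cenpa was called in neither.

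All 7 mitotic kinesins, motor proteins of the spindle, fell in both comparisons. Kif4a, a chromosome-bound kinesin that works with PRC1, had signals of -1.04, -0.06, -0.56 and -0.49 in control bone, -4.77, -2.70, -2.44 and -3.27 after the laser, and -3.54, -3.57, -1.58 and -3.36 after the bur. No treated array reached the controls. It fell by 2.76 with the laser (limma adjusted p = 0.00234) and by 2.48 with the bur (limma adjusted p = 0.0041). With normexp the Kif4a difference was -1.49 and -1.41, and in the refit -1.87 and -1.78. Kif20a, a kinesin of late mitosis, had signals of 1.77, 2.79, 2.27 and 2.15 in control bone, -1.12, 0.66, 0.93 and 0.63 after the laser, and -0.72, -0.45, 1.61 and -0.20 after the bur. It fell by 1.97 and 2.19. Kif11, the motor that pushes the spindle poles apart, fell by 2.14 and 2.12, and Kif15, which can share that task, by 2.51 and 2.71. Kif18a, which dampens chromosome movement, fell by 2.09 and 2.08, and Kif23, the kinesin of the cytokinesis complex centralspindlin, by 2.30 and 2.54. Kif2c, a microtubule-dismantling kinesin, fell by 2.21 and 1.80, and its bur call was lost without control 2, 3 or 4 or bur 2 or 4, with differences from -1.77 to -1.55.

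The 3 measured genes of spindle assembly and the centriole fell in both comparisons. Stil, which is needed to build centrioles, had signals of -1.16, -0.43, -0.76 and -0.91 in control bone, -5.41, -3.50, -3.42 and -3.79 after the laser, and -5.08, -5.76, -3.14 and -4.85 after the bur. It was well above background on 3 laser arrays and on 1 bur array. It fell by 3.22 ± 0.55 with the laser (limma adjusted p = 0.00109) and by 3.89 with the bur (limma adjusted p = 0.000448). With normexp the Stil difference was -1.50 and -1.67, and in the refit -1.99 and -2.28. Dlgap5, which bundles spindle fibres, had signals of 2.14, 3.07, 2.56 and 2.60 in control bone, -1.04, 0.85, 0.87 and 0.75 after the laser, and -0.69, 0.04, 1.43 and -0.12 after the bur. It fell by 2.24 and 2.43, or by 1.48 and 1.63 with its probes averaged, and Tpx2, the activator of Aurora A, by 2.35 and 2.68.

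The 4 genes that trigger anaphase fell in both comparisons. Espl1, separase, the protease that parts sister chromosomes, had signals of 2.14, 2.92, 2.71 and 2.40 in control bone, -2.02, 0.15, 0.35 and 0.22 after the laser, and -0.99, -0.87, 1.32 and -0.56 after the bur. It fell by 2.86 with the laser, 7.28-fold (limma adjusted p = 0.00291), and by 2.82 with the bur (limma adjusted p = 0.00319). Pttg1, securin, the inhibitor of separase, fell by 2.44 and 2.53. Ube2c, the ubiquitin-conjugating enzyme that serves the APC/C, fell by 2.12 and 2.40. Cdc20, the mitotic activator of the APC/C, had signals of 1.35, 2.12, 1.72 and 1.45 in control bone and -0.26, 0.47, 0.39 and 0.32 after the laser. After the bur the Cdc20 signals were 0.0044, -0.16, 1.02 and -0.25, all below the controls. It fell by 1.43 with the laser (limma adjusted p = 0.00262) and by 1.51 with the bur (limma adjusted p = 0.00204).

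All 3 cytokinesis genes fell in both comparisons. Racgap1, the partner of KIF23 in centralspindlin, had signals of 2.19, 2.88, 2.71 and 2.40 in control bone, -1.83, 0.30, 0.38 and 0.31 after the laser, and -1.12, -0.91, 1.27 and -0.80 after the bur. It fell by 2.75 with the laser (limma adjusted p = 0.00335) and by 2.93 with the bur (limma adjusted p = 0.00245). Anln, anillin, the scaffold of the contractile ring, had signals of 1.90, 2.68, 2.09 and 2.13 in control bone, 0.50, 1.07, 1.25 and 1.33 after the laser, and 0.52, 0.74, 1.62 and 0.80 after the bur. It fell by 1.16 and 1.28, with laser arrays closer together than for most members. Prc1, which crosslinks the fibres of the spindle midzone, fell by 2.60 and 2.71.

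Of the 5 measured chromosome structure genes, 4 fell and Smc4 rose in both comparisons. Top2a, the topoisomerase that untangles sister chromosomes, had signals of 2.12, 2.89, 2.53 and 2.58 in control bone, -2.14, -0.02, 0.23 and 0.04 after the laser, and -1.26, -1.28, 0.88 and -1.39 after the bur. It fell by 3.00 with the laser, 8.02-fold (limma adjusted p = 0.00227), and by 3.29 with the bur, 9.8-fold (limma adjusted p = 0.00144). Mki67, the proliferation antigen Ki-67 that coats mitotic chromosomes, fell by 2.61 and 2.74. Ncapg, a condensin subunit, fell by 2.33 and 2.49, or by 1.88 with the bur with its probes averaged. Its laser call was lost without control 2, control 3 or laser 1 (difference without laser 1 of -1.56), and its bur call without control 2 or bur 1. Smc2, a condensin core subunit, had signals of 1.63, 2.39, 1.90 and 1.75 in control bone, -0.02, 1.05, 1.13 and 0.93 after the laser, and 0.09, 0.18, 1.89 and 0.48 after the bur. Smc2 fell by 1.15 (limma adjusted p = 0.0317) and 1.26 (limma adjusted p = 0.0212), and the laser call was lost without control 2, control 3 or laser 1 and the bur call without control 2, bur 1 or bur 2. Other processing moved further values. With normexp background correction 12 laser and 13 bur differences moved by over 1.5-fold, and in the refit of the authors' quantile-normalized values 10 and 10, with every one keeping its direction and its call. Among those given so far, the normexp differences with laser and bur were -1.43 and -1.52 for Aurkb, -1.89 and -1.93 for Bub1b, -1.71 and -2.01 for Cenpf, -1.39 and -1.39 for Kif18a, -0.98 and -0.93 for Kif2c, -1.36 and -1.46 for Ncapg and -1.64 and -1.82 for Tpx2, and -1.90 for Kif23 with the bur. Among the other members, leaving out 1 array ended the Ndc80 laser call (control 2, -1.85) and the Foxm1 bur call (control 2, control 3, bur 1 or bur 2, from -1.18 to -1.03).

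**Figure D2:**
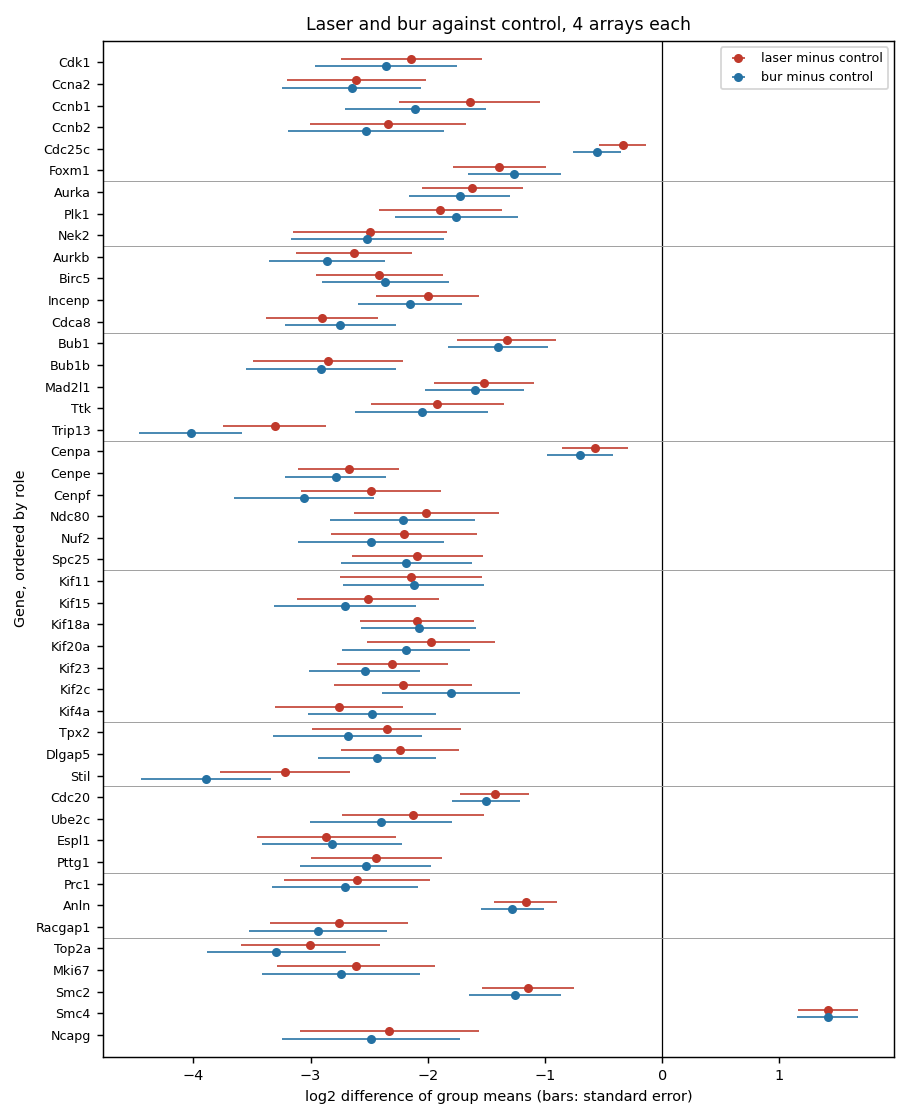
Log2 difference of the mean of 4 laser arrays (red) and 4 bur arrays (blue) from the mean of 4 control arrays for each of the 46 members, ordered by role. Bars are standard errors. All members but Smc4 lie left of 0, and the bars of the laser and bur points overlap for most genes.

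The direction of Smc4, the other condensin core subunit, depended on the probe. The probe with the highest mean, at chr2:159001380-159001439 of build RGSCv3.4, had signals of 7.63, 7.46, 7.26 and 7.15 in control bone, 9.09, 8.82, 8.70 and 8.55 after the laser, and 9.65, 8.67, 8.47 and 8.36 after the bur. It was higher by 1.42 with the laser, 2.67-fold (limma adjusted p = 0.00153), and by 1.41 with the bur (limma adjusted p = 0.00157). With quantile normalization this probe's laser difference was 0.81, and in the refit of the authors' values 0.72. The second Smc4 probe, at chr2:159013946-159014005, had signals of 0.90, 1.64, 1.28 and 1.26 in control bone, -1.11, -0.40, -0.13 and -0.19 after the laser, and -1.12, -0.87, 0.25 and -0.97 after the bur. In a limma fit over 30133 probes it was lower by 1.73 (adjusted p = 0.00153) and 1.95 (adjusted p = 0.000839). With the probes of a gene averaged, the Smc4 difference was -0.16 and -0.27, and it was called in neither comparison.

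The 2 members with the smallest differences also had a second probe with a larger one. The second Cenpa probe, at chr6:25688936-25688995, gave -2.64 with the laser (limma adjusted p = 0.00307) and -2.91 with the bur (limma adjusted p = 0.00185), where the first, at chr6:25685603-25685662, was called in neither. The second Cdc25c probe gave -1.34 in both comparisons (limma adjusted p = 0.00868 and 0.00837). In Dlgap5 the second probe gave -0.73 with the laser (limma adjusted p = 0.0699) and -0.84 with the bur (limma adjusted p = 0.0412). In all, 17 members had more than 1 probe that passed, with 23 further probes, of which 22 fell with the laser and 22 with the bur and none rose. No gene annotation of that build was used here, so exon or UTR positions of the probes are not given.

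**Figure D3:**
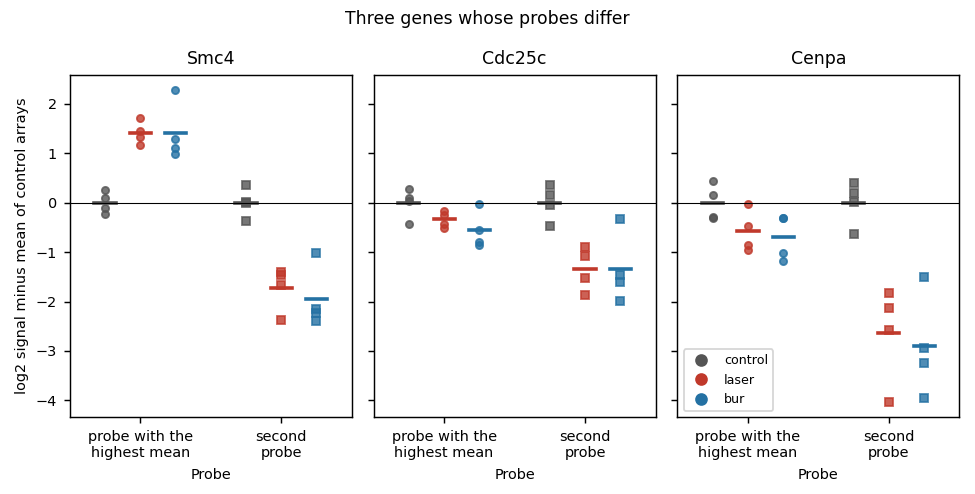
Log2 signal minus the control mean on each array for both probes of Smc4, Cdc25c and Cenpa, with group means as lines. The first Smc4 probe is above control and the second below, and the second probes of Cdc25c and Cenpa lie lower than the first in both cut groups.

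Laser and bur did not differ beyond their spread for any member. In limma, 0 of 46 members were called between laser and bur, and 0 had an unadjusted p under 0.05, where 1491 of all genes (6.5%) did. Over all genes, 0% were called lower and 0.00436% higher, which is 1 gene. Trip13 was well above background in neither group and is given no difference. Those of the other 45 members ran from -0.41 (Kif2c) to 0.68 (Stil), with 36 above 0 and a median of 0.12. For Stil, above background on 3 laser arrays and 1 bur array, the 95% interval was from -0.54 to 1.89. The difference was, for Cenpf, 0.57 with an interval from -0.74 to 1.88, and for Ccnb1 0.46 with an interval from -0.86 to 1.79. The intervals of 39 of the 45 reached beyond a 2-fold difference in 1 direction or the other, and those of Cdc25c, Cenpa, Cdc20, Anln, Smc2 and Smc4 did not. With Trip13 and its values near background included, the median difference over all 46 members was 0.63 without laser 1 and 0.57 without bur 3. It turned to -0.07 without bur 1 and to just below 0 without laser 2 or laser 3. Both comparisons with control share the same 4 control arrays.

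The members were more variable in cut bone than in control bone. The median SD of a member over 4 arrays was 0.38 in control, 1.04 in laser and 0.97 in bur bone, where the medians over all genes were 0.232, 0.285 and 0.324. The SD was larger in laser than in control bone for 44 of 46 members, against 61.5% of all genes, and larger in bur than in control bone for 46 of 46, against 67.0%. The mean over the 46 members was 1.18, 2.02, 1.61 and 1.49 on the control arrays, -1.86, -0.06, 0.03 and -0.17 on the laser arrays, and -1.23, -1.09, 0.67 and -0.95 on the bur arrays. The members shifted together from array to array. Laser 1 was the lowest laser array for 42 of 46 members, against 24.3% of all genes, and bur 3 the highest bur array for 44, against 27.5%. Within control bone, control 2 was the highest array for 45 members and control 1 the lowest for 44, against 30.0% and 26.5% of all genes. Without bur 3, the bur arrays of 44 members lay below every control array. Leaving out the highest bur array of most members raises this count. The share of all genes with the same pattern was not counted.

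**Figure D4:**
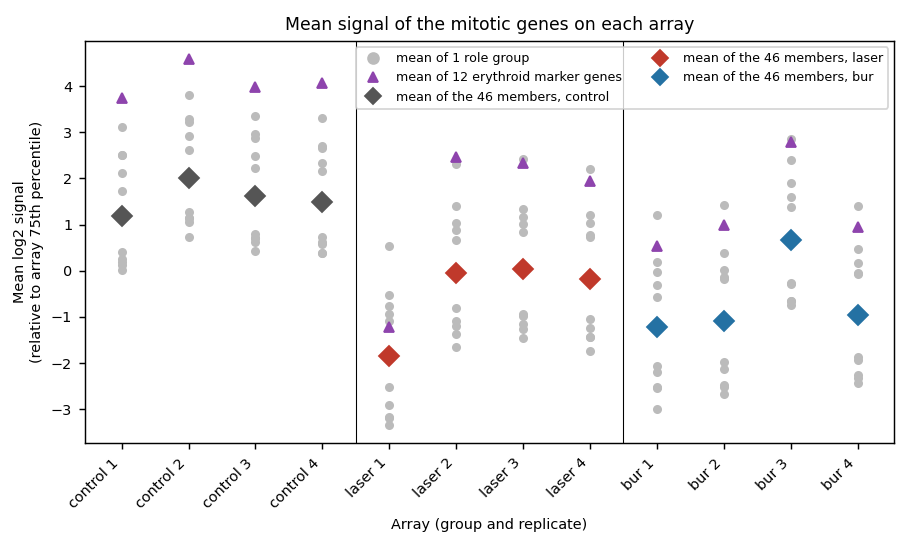
Mean log2 signal on each of the 12 arrays, relative to the array's 75th percentile, for the 46 members (diamonds, coloured by group), for each role (grey circles) and for 12 erythroid marker genes (purple triangles). The member mean is 1.18 to 2.02 on control arrays, and it is lowest on laser 1 and highest among cut bone on bur 3, as the erythroid mean is. Several marker lists not drawn here share the lowest laser array and the highest bur array.

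Markers of blood cell precursors were lower in the same groups. For comparison, 17.6% of all genes were called lower with the laser and 18.3% with the bur. Of 12 erythroid marker genes, 11 fell in each comparison, and their mean was 3.75 to 4.58 on control arrays, -1.21 to 2.46 on laser arrays, lowest on laser 1, and 0.54 to 2.79 on bur arrays, highest on bur 3. Gata1, the erythroid and megakaryocyte transcription factor, fell by 2.97 with the laser. Of 9 measured granulocyte precursor genes 8 fell in each, with means of 3.37 to 3.70 in control, 0.26 to 2.30 in laser and 0.45 to 2.48 in bur bone. Of 8 megakaryocyte genes 7 fell in each, with means of 1.13 to 1.67, -2.35 to -0.08 and -1.77 to 0.38 in the same order. Of 11 B cell genes 7 fell with the laser and 6 with the bur. All 12 erythroid markers and all 9 measured granulocyte markers were well above background on all 12 arrays. Of 9 T and NK cell genes 8 fell with the laser and 7 with the bur, and of 8 monocyte and macrophage genes 5 fell in each. Of 8 mature neutrophil genes 4 and 3 fell, of 8 neural genes 6 and 5, and of 5 measured adipocyte genes 4 and 5. None of 8 skeletal muscle genes was called, and their mean ran from -2.48 to 4.48 on control arrays. Of 8 endothelial genes 1 fell in each comparison and 1, Pecam1, rose with the bur. Well above background on all 12 arrays were 6 of 8 megakaryocyte and 5 of 9 T and NK cell genes. The same held for 3 of 8 neural and 3 of 5 adipocyte genes. Some falls in these lists therefore rest on values near background. The order of arrays was not particular to the erythroid list. Laser 1 was also lowest and bur 3 highest in their groups for the granulocyte precursor, megakaryocyte, B cell, T and NK cell, and monocyte means. This did not hold for the mature neutrophil, neural, adipocyte, muscle and endothelial means. The part of these cell types in the mitotic result was not tested.

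Markers of bone-forming cells moved the other way. All 10 osteoblast genes rose with the laser and 9 with the bur, with means of 4.11 to 4.63 in control, 5.55 to 5.94 in laser and 5.48 to 5.94 in bur bone. Of 7 measured osteocyte genes, 6 rose in each, while Sost, the osteocyte inhibitor of bone formation, fell by 0.80 with the laser and rose by 0.88 with the bur. Omd, osteomodulin of the bone matrix, rose by 2.67 with the laser, and Runx2, the osteoblast transcription factor, by 2.18. The samples thus carried the defining markers of bone. Of 8 periosteal fibroblast genes 4 rose in each, and of 6 measured osteoclast genes, cells that resorb bone, 1 rose in each, against the 32.2% and 32.7% of all genes called higher. The osteoclast mean was also lowest among laser arrays on laser 1 (-0.02) and highest among bur arrays on bur 3 (1.32).

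Other genes of the cell cycle were read from 5 lists. Of 40 other mitotic genes, 37 fell in each comparison and 0 rose, with medians of -2.01 with the laser and -2.11 with the bur. Ncapd2, a condensin subunit, was lower by 2.42 with the laser (limma adjusted p = 0.000597), and Cenpn, a centromere protein, by 1.87 (limma adjusted p = 0.00101). Of 28 DNA replication genes, 27 fell in each, with medians of -1.48 and -1.73. Mcm6, a subunit of the replicative helicase, fell by 2.26 with the laser and 2.78 with the bur, and Pole, the leading-strand polymerase, by 2.16 and 2.69.

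The 20 genes listed for the APC/C core and for cohesin, the ring that holds sister chromosomes, did not move one way. The list also holds the activator Fzr1 and the checkpoint gene Bub3. With the laser 6 fell and 8 rose, and with the bur 5 fell and 8 rose, with medians of 0.17 and 0.11. Over all genes, 17.6% fell and 32.2% rose with the laser, and 18.3% fell and 32.7% rose with the bur. The medians of all genes were 0.21 and 0.233, so the list's medians lay near them, while its single genes moved both ways. Anapc4, an APC/C scaffold subunit, rose by 0.94 and 0.87, while Rad21, the cohesin subunit that separase cuts, fell by 1.66 and 1.71, and Fzr1, the APC/C activator of G1, fell by 1.72 and 1.58. Smc1a of cohesin fell by 0.80 and 0.83, and Cdc27 of the APC/C by 0.44 and 0.60.

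Of 11 G1 cyclins, G1 kinases and activating E2F factors, 8 fell with the laser and 9 with the bur, with medians of -1.17 and -1.36, and 1 rose. The 1 that rose was Ccnd1, cyclin D1, by 1.71 with the laser (limma adjusted p = 0.000361) and 0.94 with the bur (limma adjusted p = 0.00774). Ccnd3, cyclin D3, fell by 1.54 and 1.41. Of 14 CDK inhibitors and RB family genes, 7 fell and 2 rose in each. Cdkn1a, the inhibitor p21, rose by 1.39 (limma adjusted p = 0.0015) and 1.44 (limma adjusted p = 0.00129), and Tob1, an antiproliferative factor, by 1.67 and 1.64. Rb1, the retinoblastoma protein, fell by 1.13 and 1.64, and Cdkn2c, the inhibitor p18, by 1.56 and 1.67.

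**Figure D5:**
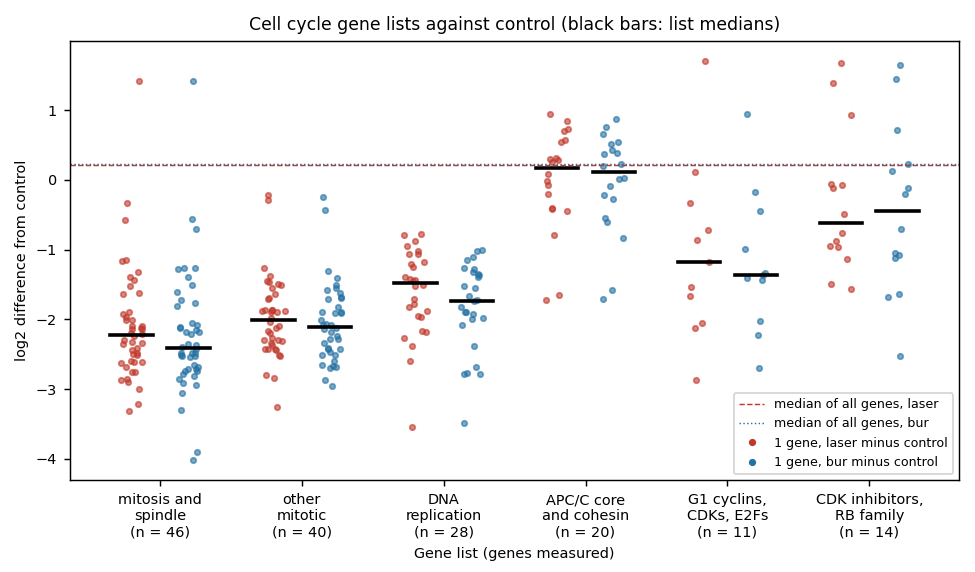
Log2 difference from control of each gene in the 46 members and the 5 other lists, with the laser (red) and the bur (blue). Black bars are list medians, and the dashed and dotted lines the medians of all genes, 0.21 and 0.233. The medians of the members, the other mitotic genes and the replication genes lie below -1.4, and that of APC/C and cohesin at 0.17 and 0.11.

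The authors' deposited tables of their own comparisons hold 45 of the 46 probes used, all but that of Bub1b. In the authors' deposited table for laser against control, 42 of these were lower and 1 higher at an adjusted p under 0.05, with a median log2 fold change of -1.89. In the authors' deposited table for bur against control, 43 were lower and 1 higher, with a median of -2.04. In the authors' deposited table for laser against bur, 0 of 45 passed.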

How the data were processed

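All 12 arrays, of 62976 spots each, were read, and groups were taken from the sample titles. Per the file headers, the deposited intensity values are the processed signal of Agilent Feature Extraction 11.0.1.1, with background already subtracted. The authors also deposited log2 quantile-normalized values and tables with a log2 fold change and an adjusted p-value for each probe, with the model not stated in the labels or headers. Control spots and spots marked as outliers were left out, the log2 signal was averaged over a probe's spots, and the array's 75th percentile was subtracted, so that a shift common to most genes cannot be seen. A probe counted as well above background on an array when over 50% of its spots were, and probes with this on at least 4 of 12 arrays were kept (30133 of 45598). Of a gene name's probes the one with the highest mean was used (22936 genes), since names are those in the files. Between 67.8% and 73.7% of spots were well above background on an array, and the number of arrays limits the precision. The 3 groups were fitted together with limma 3.58.1 in R 4.3.3 (lmFit, eBayes), with Benjamini-Hochberg adjusted p under 0.05 as the call; the fit was tested on simulated data. The members and lists were chosen with earlier results of these data known. Single-array signals are given for the member with the largest and the smallest laser difference in each role, the 5 members with the smallest p between laser and bur (Trip13 among them), and genes with disagreeing probes, which were picked after their values were seen; from each list the genes with the smallest adjusted p are named, and those called against the list's majority.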

Additional observations from a re-analysis of the deposited data

Results flagged for a closer look

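In groups of 4 arrays, 1 array was set apart where its gap to the nearest other array, as a share of the group's range, passed Dixon's 95% critical value for 4 values. Of 231 groups tested, 70 passed, where chance gives about 1 in 20 and the genes are not independent. Every one was laser 1 as the lowest laser array or bur 3 as the highest bur array, and none was a control array.

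For the mean over a list, laser 1 was the lowest laser array with these shares: all members 0.893, cyclin and CDK1 engine 0.878, mitotic kinases 0.900, centromere and kinetochore 0.863, mitotic kinesins 0.881, spindle assembly and centriole 0.897, anaphase trigger 0.933, cytokinesis 0.917, chromosome structure 0.887, other mitotic genes 0.872, DNA replication genes 0.840, G1 cyclins with their kinases and E2Fs 0.8292, erythroid 0.858 and B cell 0.873. For single members, the share for laser 1 was as follows: Cdk1 0.873, Ccna2 0.934, Ccnb2 0.944, Foxm1 0.909, Aurka 0.977, Plk1 0.912, Nek2 0.839, Birc5 0.891, Incenp 0.911, Bub1 0.963, Bub1b 0.842, Ttk 0.891, Ndc80 0.904, Spc25 0.961, Kif11 0.975, Kif15 0.954, Kif20a 0.854, Kif23 0.852, Kif2c 0.968, Tpx2 0.894, Dlgap5 0.935, Ube2c 0.887, Espl1 0.915, Pttg1 0.879, Prc1 0.894, Racgap1 0.962, Top2a 0.893, Mki67 0.901 and Ncapg 0.882.

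For the mean over a list, bur 3 was the highest bur array with these shares: all members 0.855, cyclin and CDK1 engine 0.860, mitotic kinases 0.872, chromosomal passenger complex 0.852, spindle checkpoint 0.875, centromere and kinetochore 0.921, mitotic kinesins 0.835, anaphase trigger 0.900, chromosome structure 0.865, other mitotic genes 0.866, DNA replication genes 0.885, G1 cyclins with their kinases and E2Fs 0.846 and B cell 0.839. For single members, the share for bur 3 was as follows: Ccna2 0.879, Ccnb1 0.847, Ccnb2 0.848, Aurka 0.914, Nek2 0.883, Aurkb 0.865, Cdca8 0.943, Mad2l1 0.878, Ttk 0.865, Cenpf 0.904, Kif4a 0.895, Pttg1 0.942, Racgap1 0.864 and Top2a 0.943.

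The mean over all members was -1.86 on laser 1 and -0.17 on the next laser array, and 0.67 on bur 3 and -0.95 on the next bur array. Laser 1 had 73.7% and bur 3 72.8% of spots well above background, within the range of the other treated arrays (67.8% to 73.7%). Bur 3 had the highest 75th percentile signal of any array, 1728, followed by bur 4 with 1425. Its spiked-in control probes also had the highest mean, 8.83. Within the laser group, outlier spots were most frequent on laser 1 (1.62%), but bur 1 had 1.64%. In a fit that weighted each array, laser 1 had the lowest laser weight (0.726, then laser 4 with 0.738). Bur 3 had a weight of 0.641 and bur 1 a lower one, 0.465. Whether these values bear on the flags was not tested.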

How the results depend on the processing

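In both comparisons with control, the members' median difference stayed below 0 under all alternatives run. The laser-against-bur median of 0.12 turned sign without bur 1 (-0.07), laser 2 or laser 3, and ranged up to 0.63. The laser count ranged from 33 to 45 and the bur count from 36 to 46, and 0 members differed between laser and bur in any. The lowest counts came from the treated arrays of replicates 3 and 4 alone, an alternative added after seeing the data. Without each array in turn, the counts were 39 to 44 with the laser and 39 to 46 with the bur, and the medians -2.45 to -1.64 and -2.92 to -2.15. Of the 38 and 39 called members with a value under every alternative, 25 and 29 kept their call under every one. Smc4 turned direction with the mean of a gene's probes (-0.16 with the laser, -0.27 with the bur), since its probes go opposite ways. With the slide as a random block, 40 and 43 members were called. Other scalings moved the median of all genes from 0.21 to between 0.0926 and 0.104 with the laser, with 44 members called in each. Normexp background correction gave smaller medians, -1.65 and -1.77. Replicate numbers are shared by the groups. Deviations of all 12 same-number pairs correlated above 0 (0.0465 to 0.577), with 8 over 0.1. Pairs of different number ran from -0.488 to 0.204, and 8 of 12 arrays correlated best with their own number. The arrays may be paired by number, which the main fit did not use. Laser and bur arrays of the same number also shared a slide, so pairing and slide cannot be told apart between them. With a replicate block, 44, 46 and 0 members were called. Probes near background limit Trip13, Stil, Cenpe, Cdca8, Ncapg and Kif2c, and 4 arrays a group limit laser against bur. Ncapg was well above background on 3 laser and 3 bur arrays, and Kif2c on 3 laser and 4 bur arrays.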
